A study of Homo sapiens with 6 samples.

Results

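The collagen chain genes were examined on 6 Affymetrix arrays of MCF10A-HER2/3 cells, a line derived from the non-tumorigenic human mammary epithelial line MCF10A. Every gene whose symbol is COL, a number, A and a number was taken where a probe set carried that symbol alone. 1 transmembrane chain was left out by the rule and was not analysed here. This gave 43 chains of 18377 genes measured, each read at its probe set of highest mean. The cells carried a lentiviral, doxycycline-inducible construct coding for a microRNA (miR): a control miR, or SHP2 miR1 or miR2 against SHP2, with 2 arrays in each of these 3 groups. All 3 groups, the control included, were kept in three-dimensional culture for 15 days with doxycycline renewed every 2 days, in medium with EGF, insulin, cholera toxin, hydrocortisone and horse serum. SHP2, encoded by PTPN11, is a tyrosine phosphatase that relays signals from receptor tyrosine kinases. The labels do not say whether the lines were clones or whether replicates came from separate cultures, so the spread behind each p-value is that of these arrays and may be technical.

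Collagens are secreted or membrane-bound proteins built from chains with long runs of glycine repeats, which wind around each other into a helix. Fibrillar collagens form the fibres of stroma, type IV collagen forms the sheet-like network of basement membranes, and fibril-associated collagens sit on fibre surfaces. Mammary epithelium rests on a basement membrane, while most fibrillar collagen of the gland is made by stromal fibroblasts. Before secretion the chains are hydroxylated, folded and exported by dedicated enzymes and carriers, and after secretion they are cleaved and crosslinked.

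COL4A1 and COL4A2 encode the chains of the ubiquitous type IV network and lie head to head, transcribed away from each other. The stretch between their start sites is shown because both genes had lower values on every SHP2 miR array than on either control, as described below. It spans 126 bases at chr13:110307158-110307283 (RefSeq, GRCh38.p14), written on the + strand, and COL4A2 starts just after its right end. The corresponding 126 bases before the start site of COL12A1, the only chain past the threshold in any of the 4 comparisons, lie at chr6:75206054-75206179 and are written on the - strand. Capitals mark matches to the GC box GGGCGG, the CCAAT box, the TATA box TATAAA or the AP-1 site TGANTCA, each searched on both strands; none of these matches overlapped another.
COL4A1/COL4A2: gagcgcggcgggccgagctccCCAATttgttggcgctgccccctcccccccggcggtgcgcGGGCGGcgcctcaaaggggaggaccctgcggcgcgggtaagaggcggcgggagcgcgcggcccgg
COL12A1: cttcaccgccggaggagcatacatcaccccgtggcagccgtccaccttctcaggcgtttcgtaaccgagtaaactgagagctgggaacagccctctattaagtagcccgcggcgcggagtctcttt
The type IV stretch was 80.2% G and C and held 1 GC box and 1 CCAAT match, both on the written strand. Of 35116 RefSeq start sites, 34.6% held the GC box and 21.1% the CCAAT box in the 126 bases upstream. The median G and C content of those windows was 60.3%. The COL12A1 stretch was 58.7% G and C and held none of the 4 motifs. Of the 31 collagen genes listed in the promoter table, 43 start sites are given. Of these 19 (44.2%) had a GC box in that window, 7 (16.3%) a CCAAT box and 5 (11.6%) TATAAA, which 5.87% of all start sites had. The type IV stretch precedes start sites of both COL4A1 and COL4A2. It is counted for each gene in the GC box and CCAAT box figures. An AP-1 match was found at 1 collagen start site, against 3.50% of all.

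The deposited values are log2 probe set values, with the base inferred from their range. Array medians lay between 5.23 and 5.35, and standard deviations across probe sets were 1.92 on each SHP2 miR1 array, 1.95 and 1.97 for SHP2 miR2, and 1.99 and 2.02 in control. PTPN11 read 7.96 and 8.44 on the control arrays, 6.04 and 5.71 under SHP2 miR1, and 6.90 and 7.28 under SHP2 miR2. The groups did not overlap. It fell by 1.72 as the average of both SHP2 miRs (SE 0.19, limma adjusted p = 0.00184). Under SHP2 miR2 alone its difference of -1.11 missed the threshold (adjusted p = 0.0813), while under SHP2 miR1 it fell by 2.32 (adjusted p = 0.000548).

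Chains were separated into expressed and near the floor. A chain counted as expressed when its mean over all 6 arrays exceeded 4.76, the 40th percentile of all probe set means. By this rule 28 of 43 chains were expressed, against 71.0% of all genes. The other 15 chains were COL4A3, COL4A4, COL5A2, COL6A3, COL6A5, COL6A6, COL8A1, COL9A1, COL10A1, COL11A1, COL12A1, COL14A1, COL19A1, COL21A1 and COL24A1, with means from 3.65 to 4.70. The chains just below the floor were COL12A1 (4.63), COL6A3 (4.67) and COL5A2 (4.70), and those just above were COL15A1 (4.96), COL25A1 (4.99) and COL28A1 (5.01). A floor set at the 95th percentile of 339 olfactory receptor genes, which epithelial cells hardly transcribe, lay at 4.71 and kept the same 28 chains. With the median of all probe sets as the floor, 23 chains remained.

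By class, the expressed chains were 8 of 11 fibrillar, 5 of 10 fibril-associated, 4 of 6 basement membrane network and 2 of 5 beaded filament chains. The short-chain network, which surrounds blood vessels and growing cartilage, had 1 of 3. Expressed too were all 3 measured transmembrane chains, both multiplexins, the anchoring fibril chain COL7A1, and COL26A1 and COL28A1. A value above the floor does not by itself show a transcript, since probe sets differ in background. COL2A1, the main collagen of cartilage, read 5.52 to 6.02 and passed, while only 4 of 8 chondrocyte markers did.

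**Figure D1:**
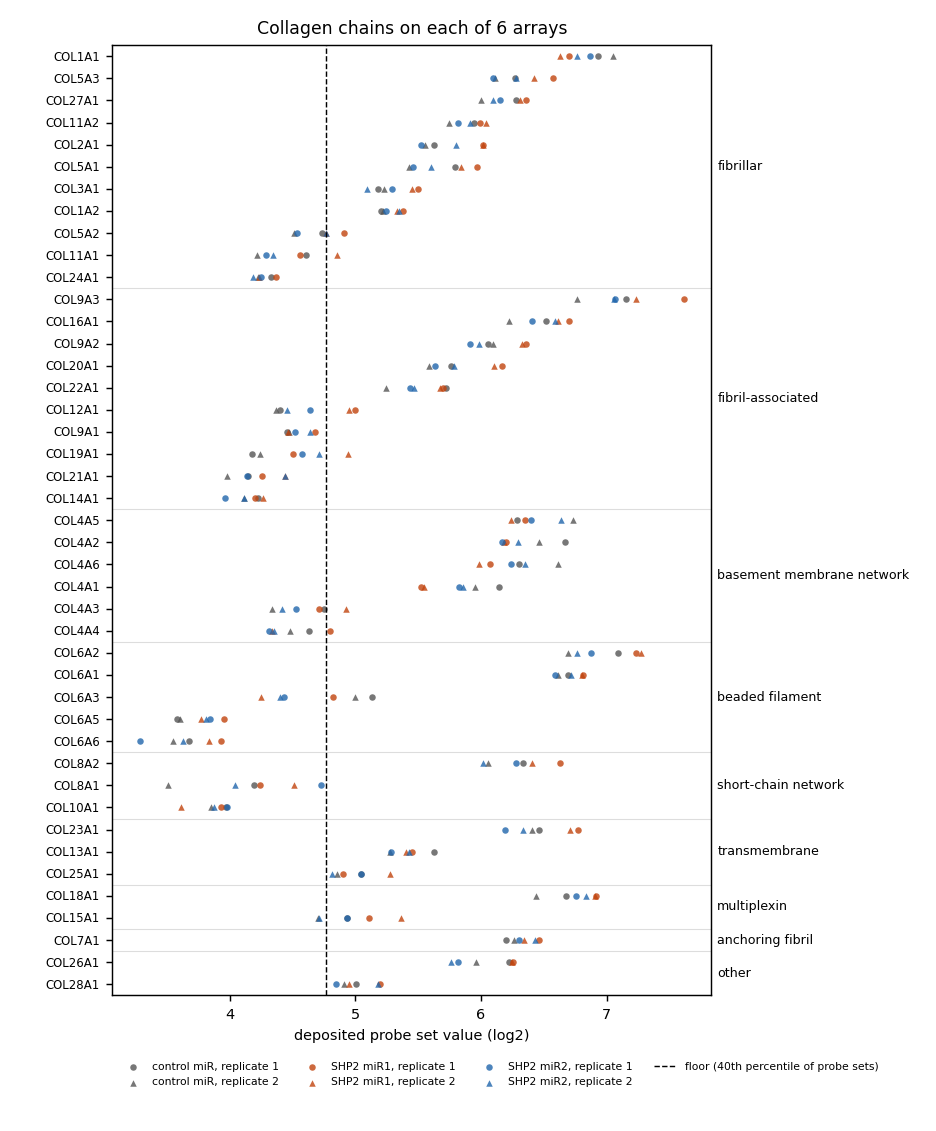
Deposited log2 value of each of the 43 collagen chains (rows, grouped by class) on the 6 arrays; circles are replicate 1, triangles replicate 2, and the dashed line is the floor at 4.76. The 28 chains with a mean to the right of the line were counted as expressed, and values of different probe sets are not comparable as amounts.

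Reduction of SHP2 was accompanied by no called difference in collagen chain transcripts when both SHP2 miRs were averaged. Of 43 chains, 0 passed the threshold (limma, Benjamini-Hochberg adjusted p under 0.05 over all 18377 genes), where 4.20% of all genes did. At an unadjusted p under 0.05 there were 5 of 43 chains (11.6%), against 20.9% of all genes. These were 2 higher (COL12A1 and COL19A1; 8.31% of all genes) and 3 lower (COL4A1, COL4A2 and COL6A3; 12.6%). The chains' average differences ran from -0.59 for COL6A3 to 0.53 for COL8A1, with a median of 0.10 over the 43 chains and 0.02 over all genes. In these bulk samples, fewer cells of a kind and less RNA per cell cannot be told apart.

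The intervals show the precision of these differences. For the 28 expressed chains the 95% interval of the average difference reached 0.28 to 0.37 to either side, and all 28 intervals lay between -1 and 1, that is, within a 2-fold change. Over all 43 chains 42 intervals did so, and the exception was COL8A1, a short-chain collagen near the floor, with an upper limit of 1.07. The smallest average difference called among all genes was 0.53 in size.

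**Figure D2:**
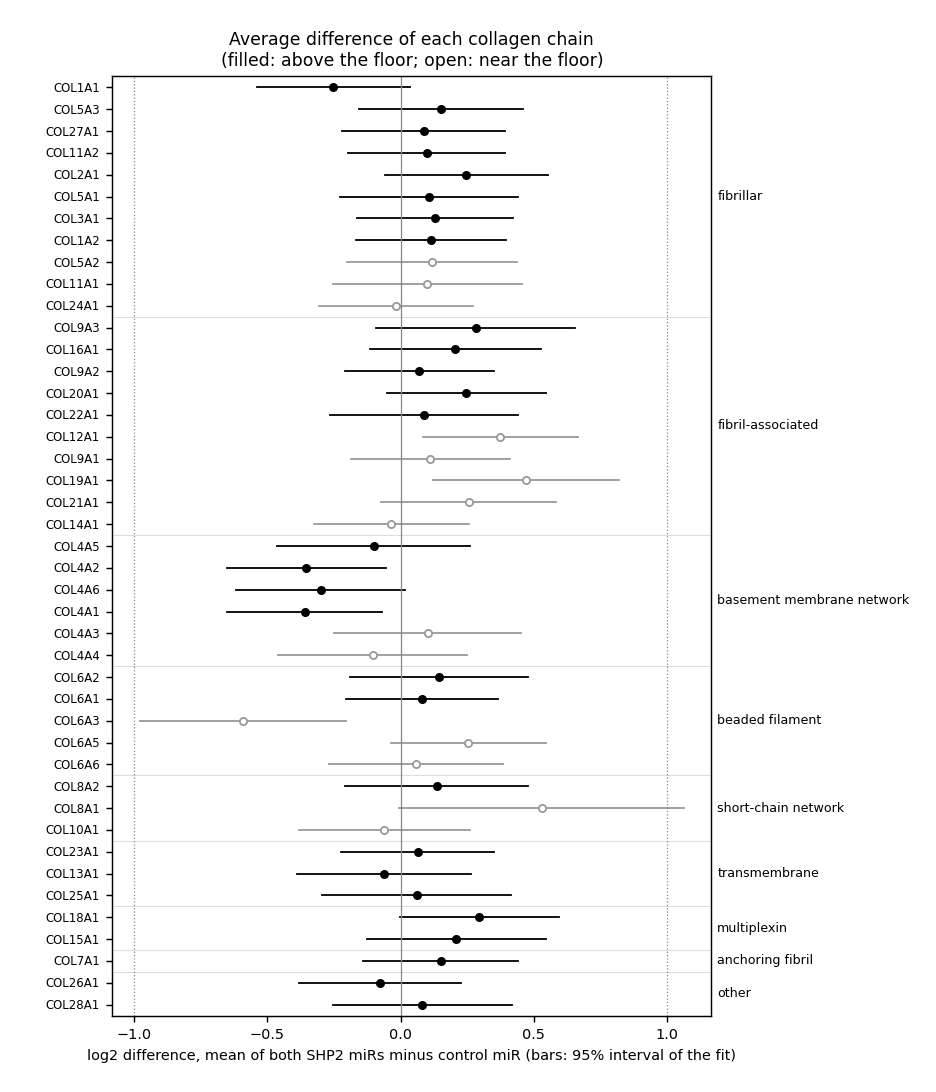
Average difference of each collagen chain, both SHP2 miRs minus control (log2, x axis), with the 95% interval of the limma fit as bars; filled points are expressed chains and open points chains near the floor. The points lie between -0.59 and 0.53, and only the interval of COL8A1 reaches past the dotted line at 1.

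The basement membrane chains COL4A1 and COL4A2 lay below both controls on all 4 SHP2 miR arrays, without passing the test over all genes. COL4A1 read 6.14 and 5.95 on the control arrays, 5.52 and 5.55 under SHP2 miR1, and 5.83 and 5.86 under SHP2 miR2. COL4A2, its partner in the type IV molecule, read 6.67 and 6.46 in control, 6.20 and 6.18 under SHP2 miR1, and 6.17 and 6.30 under SHP2 miR2. Neither group of SHP2 miR arrays overlapped the controls. The average differences were -0.36 for COL4A1 (95% interval -0.65 to -0.07, adjusted p = 0.159) and -0.35 for COL4A2 (-0.65 to -0.06, adjusted p = 0.175). With SHP2 miR1 alone COL4A1 differed by -0.51 (SE 0.15, limma adjusted p = 0.0654), which passed when dim genes were left out of the fit (0.0385) or array medians were centred (0.0359). It did not pass in the other 14 of 16 alternatives, and ran from -0.61 to -0.42 with an array left out. Over all genes 13.6% lay below both controls on all 4 arrays, so 4 of 43 chains below is close to the background. Those 4 were COL4A1, COL4A2, COL1A1 and COL6A3.

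COL4A5 and COL4A6 encode the other type IV chains found under epithelia and are also arranged head to head. COL4A6 read 6.31 and 6.61 in control, 6.07 and 5.98 under SHP2 miR1, and 6.24 and 6.35 under SHP2 miR2. Both SHP2 miR1 arrays lay below the controls, while the SHP2 miR2 arrays overlapped them. Its average difference was -0.30 (95% interval -0.62 to 0.02, adjusted p = 0.261). COL4A5 read 6.29 and 6.73 in control, 6.35 and 6.24 under SHP2 miR1, and 6.40 and 6.64 under SHP2 miR2. Its control arrays spanned more than the group means differed. COL4A3 and COL4A4, known from kidney and lung basement membranes, were near the floor, with values from 4.31 to 4.92 and average differences of 0.10 and -0.11.

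**Figure D3:**
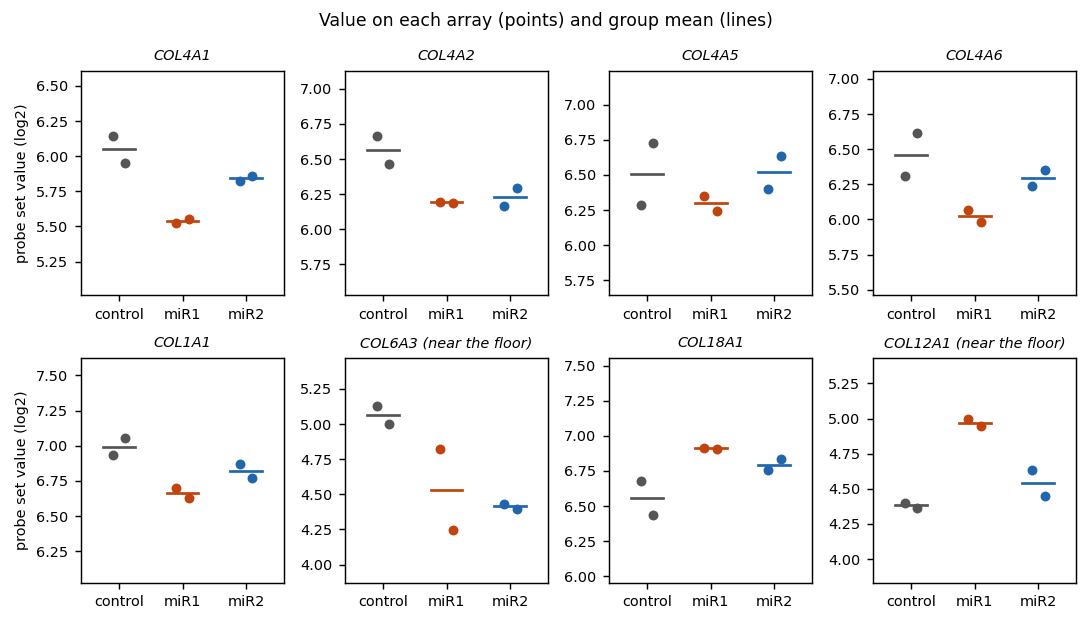
Value of 8 collagen chains on each array (points, log2) with the mean of the 2 arrays of each group (lines); every panel spans the same log2 range around the chain's own mean. COL4A1, COL4A2, COL1A1 and COL6A3 lie below both controls on all 4 SHP2 miR arrays, COL18A1 and COL12A1 lie above, and COL4A5 and COL4A6 overlap.

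Fibrillar chains differed little from control. COL1A1, which with COL1A2 forms type I collagen, read 6.93 and 7.05 in control, 6.70 and 6.63 under SHP2 miR1, and 6.87 and 6.77 under SHP2 miR2. All 4 SHP2 miR arrays were below the controls, with an average difference of -0.25 (95% interval -0.54 to 0.04, adjusted p = 0.296). COL1A2 read 5.20 and 5.22 in control, 5.38 and 5.33 under SHP2 miR1, and 5.25 and 5.35 under SHP2 miR2. Its arrays lay above the controls instead, by 0.11 on average (-0.17 to 0.40, adjusted p = 0.646), so the estimates for the chains of type I collagen had opposite signs. The difference between those chains was not tested.

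Type III and type V collagens accompany type I in stromal fibres. COL3A1 lay between 5.09 and 5.50, with an average difference of 0.13. COL5A1 and COL5A3 had 0.11 and 0.15, and COL5A2, near the floor, had 0.12. COL2A1 had 0.25 and the minor fibrillar chains COL11A2 and COL27A1 had 0.10 and 0.09. COL11A1 and COL24A1, near the floor, had 0.10 and -0.02. Adjusted p-values of these chains lay above that of COL1A1. COL11A2 was the only chain with several probe sets, 3 in all, of which the 2 not used had a lower mean (5.21 against 5.91) and a difference of 0.17.

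The fibril-associated group held the only called chain. COL12A1, which binds type I fibres and is produced under mechanical load, read 4.40 and 4.36 in control, 5.0 and 4.94 under SHP2 miR1, and 4.63 and 4.45 under SHP2 miR2. The SHP2 miR1 arrays stood above the floor and the other 4 arrays below it. With SHP2 miR1 it rose by 0.59 (SE 0.15, 1.5-fold, limma adjusted p = 0.0432), where 8.60% of all genes were called and 2.66% were called higher. Of the genes called there 30.9% were higher, and 19.7% were with array medians centred. The call was lost with quantile normalization (0.46, adjusted p = 0.0884) or array medians centred (0.51, 0.0666). It was lost too with a mean-variance trend (0.0608), all probe sets tested (0.0712) or only the groups compared (0.0544). Leaving out any array also ended it, at differences from 0.56 to 0.61. Without an SHP2 miR2 array the difference stayed 0.59 and the fit was that of only the groups compared, so these are not separate checks. With SHP2 miR2 the difference was 0.16 (95% interval -0.17 to 0.50, adjusted p = 0.736). The direct difference between the SHP2 miRs was -0.43 (-0.76 to -0.09, adjusted p = 0.204).

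Other fibril-associated chains had positive estimates as well, without passing. COL19A1, near the floor, read 4.18 and 4.24 in control, 4.50 and 4.94 under SHP2 miR1, and 4.58 and 4.71 under SHP2 miR2. All 4 SHP2 miR arrays lay above both controls, and the average difference was 0.47 (95% interval 0.12 to 0.82, adjusted p = 0.132). COL9A3, a chain of the cartilage collagen type IX, read 7.16 and 6.77 in control, 7.62 and 7.23 under SHP2 miR1, and 7.07 and 7.06 under SHP2 miR2, an average of 0.28. COL9A2 had 0.07 and COL9A1, near the floor, 0.11. COL16A1 had 0.21, COL20A1 0.25 and COL22A1 0.09. Near the floor, COL21A1 had 0.26 and COL14A1 -0.03. Of the 10 chains of this class 9 had a positive average difference, against 52.8% of all genes. So did 9 of 11 fibrillar and 4 of 5 beaded filament chains, but 1 of 6 basement membrane network chains. Only 5 of the 10 fibril-associated chains were expressed. All 5 of these were positive, and the 1 negative chain of the class, COL14A1, was near the floor. Genes near the floor had a median average difference of 0.09, against -0.01 for genes in the level range of the expressed chains. The part of level in these signs was not tested.

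Type VI collagen forms beaded filaments next to basement membranes from the products of COL6A1, COL6A2 and COL6A3. COL6A3 read 5.13 and 5.0 in control, 4.82 and 4.24 under SHP2 miR1, and 4.43 and 4.39 under SHP2 miR2. Only its control arrays and SHP2 miR1 replicate 1 stood above the floor, and all 4 SHP2 miR arrays lay below both controls. The average difference of -0.59 (SE 0.17, 95% interval -0.98 to -0.20) had the smallest adjusted p of any chain in the average comparison, 0.0963. With an array left out it ran from -0.74, without SHP2 miR1 replicate 1, to -0.45. COL6A3 passed only without SHP2 miR1 replicate 1, which was 1 of 14 alternatives. COL6A1 read 6.69 and 6.61 in control, 6.81 and 6.80 under SHP2 miR1, and 6.59 and 6.72 under SHP2 miR2. COL6A2 read 7.09 and 6.69 in control, 7.23 and 7.27 under SHP2 miR1, and 6.88 and 6.76 under SHP2 miR2. These partner chains had average differences of 0.08 and 0.14, and their SHP2 miR2 arrays overlapped the controls. COL6A5 and COL6A6, which can take the place of COL6A3 in some tissues, stayed near the floor with 0.25 and 0.06.

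COL18A1 and COL15A1 encode the multiplexins, basement membrane collagens that also carry sugar chains. COL18A1, the source of the endostatin fragment, read 6.68 and 6.44 in control, 6.92 and 6.91 under SHP2 miR1, and 6.76 and 6.83 under SHP2 miR2. All 4 SHP2 miR arrays were above both controls, by 0.30 on average (95% interval -0.00 to 0.60, adjusted p = 0.243). COL15A1 had 0.21. COL7A1, the chain of the anchoring fibrils that tie the basement membrane to the stroma, read 6.20 and 6.26 in control, 6.46 and 6.34 under SHP2 miR1, and 6.30 and 6.43 under SHP2 miR2. It was also above the controls throughout, by 0.15 (-0.14 to 0.44, adjusted p = 0.541). In all, 6 of 43 chains lay above both controls on all 4 arrays, close to the 12.6% of all genes that did. These were COL7A1, COL18A1, COL1A2, COL12A1, COL19A1 and COL6A5.

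Among the short-chain network collagens, COL8A2 had an average difference of 0.14, COL8A1 0.53 and COL10A1, a marker of hypertrophic cartilage, -0.06. COL8A1 had the widest interval of the chains, and its control arrays alone differed by more than its estimate, at 4.19 and 3.51. The transmembrane chains COL13A1, COL23A1 and COL25A1 had -0.06, 0.06 and 0.06. COL26A1 and COL28A1 had -0.08 and 0.08.

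The values with each SHP2 miR are given side by side, since both comparisons share the same control arrays. With SHP2 miR1 35 of 43 chains had a positive difference, against 54.1% of all genes and among the 28 expressed chains 22 had, against 50.4% of the 7941 genes in their level range. The median was 0.20 over the 28 expressed chains and 0.01 over those 7941 genes. With SHP2 miR2 20 of 43 were positive, against 48.2% of all genes, with a median of -0.01 over all 43 chains. With SHP2 miR1 11 chains had an unadjusted p under 0.05 (25.6%, against 28.1% of all genes), 7 higher (12.1% of all genes) and 4 lower (16.0%). With SHP2 miR2 there were 2 (4.65%, against 11.0%), COL19A1 higher (5.14% of all genes) and COL6A3 lower (5.88%). With SHP2 miR2 0 of 43 chains passed the adjusted threshold in limma, where 0.370% of all genes did. Both SHP2 miR1 arrays lay above both controls in 26 chains (30.5% of all genes) and below in 5 (29.0%). Both SHP2 miR2 arrays lay above in 7 (19.8%) and below in 8 (20.8%). In 3 chains, COL23A1, COL26A1 and COL9A2, the SHP2 miR1 arrays were above both controls and the SHP2 miR2 arrays below (3.20% of all genes lay on opposite sides in either order).

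The direct comparison of SHP2 miR2 with SHP2 miR1 called 0 of 43 chains in limma (0.190% of all genes). Of all 43 chains 35 were lower with SHP2 miR2. Among the 28 expressed chains 23 were, where 49.5% of the 7941 genes in their level range were lower. The 5330 genes near the floor had a median of -0.091 in this comparison. An unadjusted p under 0.05 was found in 9 (20.9%, against 17.7% of all genes), all lower (8.94% of all genes). The count of 35 was 28 with quantile normalization and 27 with array medians centred, and the 35 positive chains with SHP2 miR1 became 31 and 32. Replicate arrays differed as well. Control replicate 1 was above control replicate 2 for 33 of 43 chains (49.9% of all genes), and SHP2 miR1 replicate 1 above replicate 2 for 32 (49.1%). SHP2 miR2 replicate 1 was above replicate 2 for 16 (50.3%). Without control replicate 2 the median over the expressed chains with SHP2 miR1 was 0.13, without control replicate 1 it was 0.28, and with array medians centred 0.12. The average comparison had 31 positive chains, and 22 or 35 when control replicate 2 or 1 was left out.

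**Figure D4:**
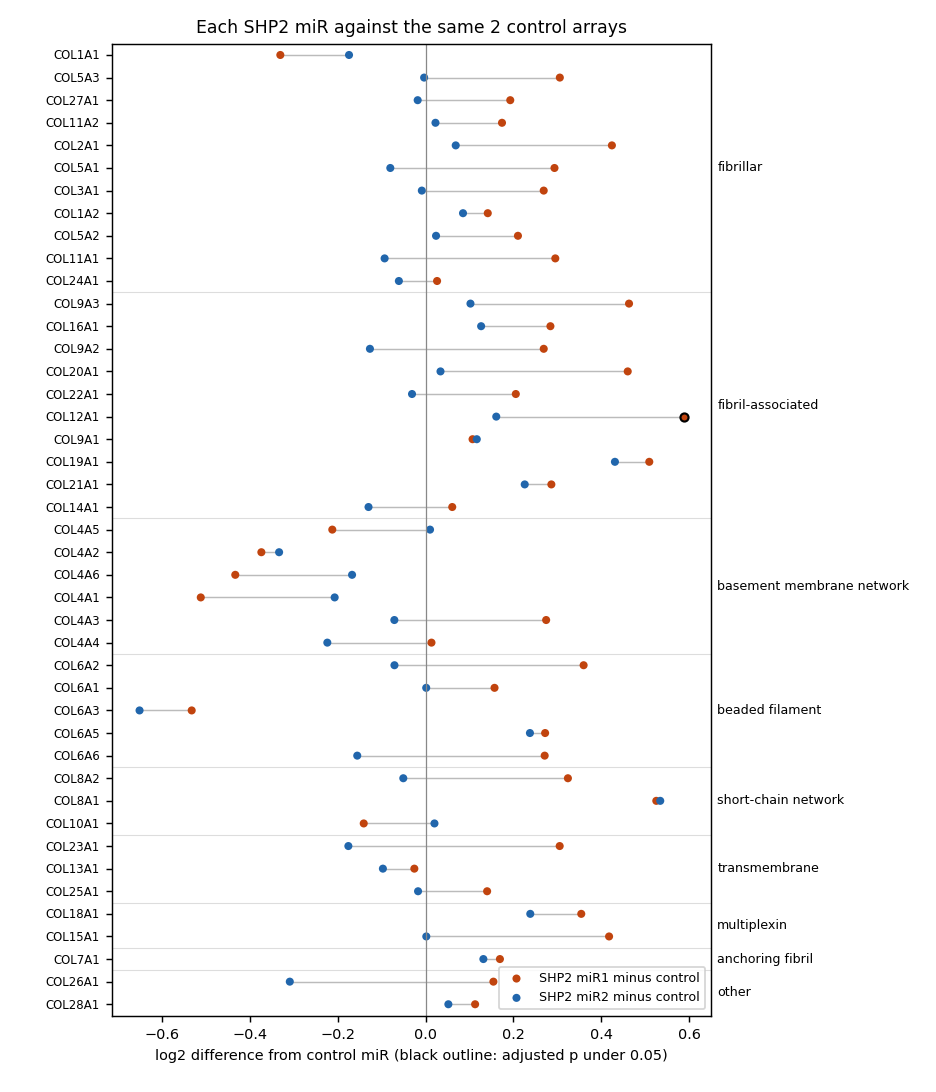
Difference from control of each collagen chain with SHP2 miR1 (red) and SHP2 miR2 (blue), in log2 units; both use the same 2 control arrays, and a black outline marks an adjusted p under 0.05. COL12A1 with SHP2 miR1 is the only outlined point, and 35 of 43 red points but 20 of 43 blue points lie to the right of 0.

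Neighbouring collagen genes were compared by their place in the RefSeq table (GRCh38.p14). Among protein-coding genes, 7 adjacent pairs consisted of 2 chains. The average differences were -0.36 and -0.35 for COL4A1 and COL4A2, -0.30 and -0.10 for COL4A6 and COL4A5, and 0.10 and -0.11 for COL4A3 and COL4A4. They were 0.08 and 0.14 for COL6A1 and COL6A2, 0.13 and 0.12 for COL3A1 and COL5A2, 0.25 and 0.06 for COL6A5 and COL6A6, and 0.47 and 0.11 for COL19A1 and COL9A1. Of the 7 pairs only COL4A3 and COL4A4, both near the floor, had estimates of opposite sign in this comparison. With SHP2 miR1 alone 0 of the 7 pairs had opposite signs, and with SHP2 miR2 alone 4 had. Of all 43 chains 31 were positive on average, 35 with SHP2 miR1 and 20 with SHP2 miR2. Any 2 chains would therefore share a sign more often with SHP2 miR1 than with SHP2 miR2. Whether neighbours agreed more than other chains was not tested. The expressed chains had a median genomic span of 80.2 kb, those near the floor one of 161 kb, and all genes one of 24.5 kb. 

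Several enzymes and carriers that prepare collagen fell. Of 21 measured genes for collagen modification and folding, all above the floor, 4 fell and 0 rose in the average comparison (2.67% of all genes fell and 1.53% rose). The median difference of this list was -0.27, against 0.02 over all genes and -0.03 over the 13047 genes above the floor. A fit to those 13047 genes alone called 8.27% of them, in either direction. P4HA3, a catalytic subunit of prolyl 4-hydroxylase, read 6.80 and 6.51 in control, 5.21 and 5.11 under SHP2 miR1, and 5.61 and 5.87 under SHP2 miR2. It fell by 1.21 (SE 0.15, adjusted p = 0.00315), and held with any array left out. P3H4, a partner of lysyl hydroxylase, read 7.74 and 7.40 in control, 6.49 and 6.12 under SHP2 miR1, and 6.63 and 6.41 under SHP2 miR2. It fell by 1.16 (SE 0.16, adjusted p = 0.00610; 0.0681 without control replicate 1). All 4 SHP2 miR arrays lay below both controls for either gene.

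P3H2, a prolyl 3-hydroxylase that acts on type IV collagen, read 9.35 and 9.34 in control, 8.14 and 8.17 under SHP2 miR1, and 9.21 and 8.98 under SHP2 miR2. It fell by 0.72 (SE 0.13, adjusted p = 0.0179), most of it in SHP2 miR1 at -1.19 (adjusted p = 0.00249), against -0.25 in SHP2 miR2 (adjusted p = 0.589). The direct difference of 0.94 did not pass (adjusted p = 0.0557). SEC23A, a coat protein of the vesicles that export procollagen, read 8.72 and 8.84 in control, 7.92 and 7.76 under SHP2 miR1, and 8.33 and 8.39 under SHP2 miR2, and fell by 0.68 (SE 0.13, adjusted p = 0.0225). Left out in turn, either control or SHP2 miR1 replicate 1 ended the call of P3H2 (0.0921, 0.162 and 0.0517). That of SEC23A ended without any array except SHP2 miR1 replicate 1 (0.0521 to 0.221). Leaving out control replicate 1 or 2 reduced the list to 1 or 2 calls.

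With SHP2 miR1 alone 5 of the 21 fell and 0 rose, where 5.94% of all genes fell. The fifth was P4HA1, the widely expressed prolyl 4-hydroxylase subunit, at -0.75 (adjusted p = 0.0296), against 0.04 with SHP2 miR2. Its call was lost without control replicate 2 (0.199) or SHP2 miR1 replicate 1 (0.162) or 2 (0.0661), and with all probe sets tested (0.0539). That of SEC23A was lost without control replicate 2 (0.0787) or SHP2 miR1 replicate 2 (0.0586). With SHP2 miR2 alone 0 of 21 passed in limma, where 0.370% of all genes did. Among members that did not pass, the lysyl hydroxylase gene PLOD2 had an average difference of -0.50 (adjusted p = 0.0919) and the collagen chaperone gene SERPINH1 -0.32 (adjusted p = 0.222). P4HB, the shared subunit of prolyl 4-hydroxylase, had -0.06 and the isomerase gene PPIB 0.02.

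Of 14 genes for procollagen cleavage and crosslinking, 1 fell and 0 rose, where 2.67% of all genes fell. LOXL2, a lysyl oxidase that crosslinks type IV collagen, read 9.48 and 9.39 in control, 8.09 and 8.08 under SHP2 miR1, and 9.01 and 8.59 under SHP2 miR2. It was lower on all 4 arrays and fell by 0.99 (SE 0.15, 1.99-fold, adjusted p = 0.00835), but not past the threshold without control replicate 1 (0.0734) or 2 (0.0976). LOX itself had -0.29 (adjusted p = 0.241) and the collagen-binding protein SPARC -0.61 (adjusted p = 0.194). In the same list PCOLCE2 was higher, at 0.47 (limma adjusted p = 0.153), with all 4 SHP2 miR arrays above both controls. The list median was 0.05.

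**Figure D5:**
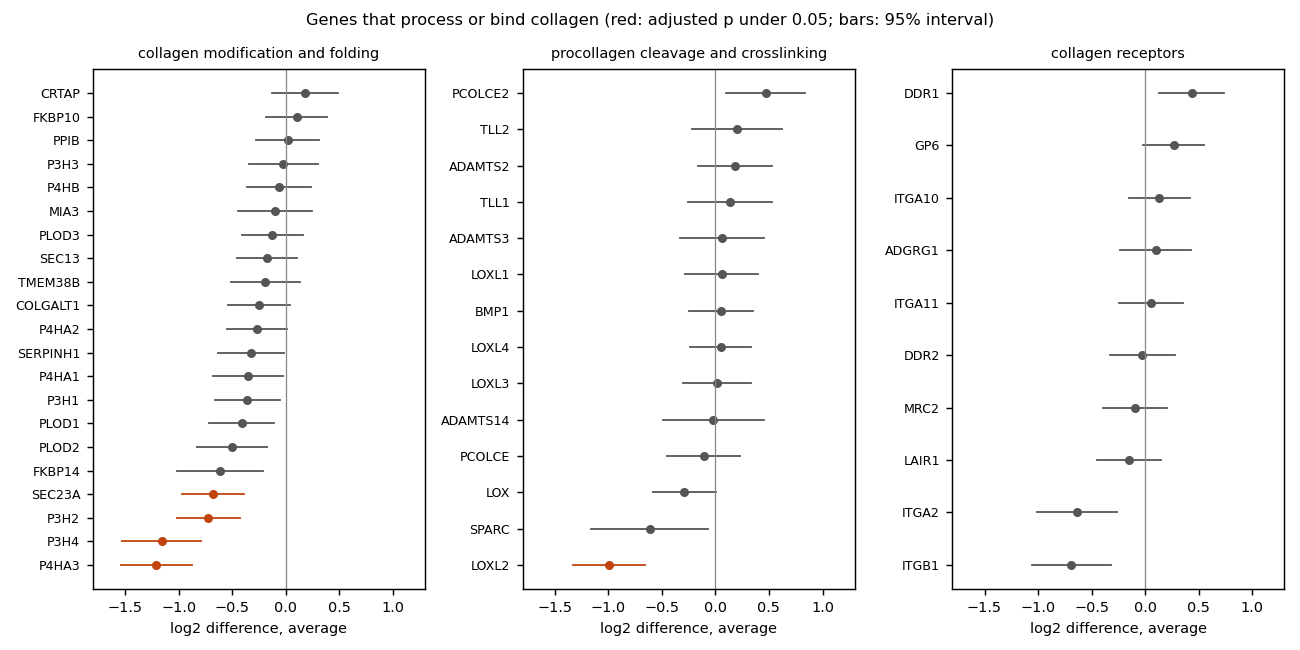
Average difference, both SHP2 miRs minus control (log2), of the measured genes for collagen modification and folding (21), procollagen cleavage and crosslinking (14) and collagen receptors (10), with 95% intervals; red marks an adjusted p under 0.05. P4HA3, P3H4, P3H2, SEC23A and LOXL2 are the red points, all below 0.

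Among 10 collagen receptor genes 0 passed in the average comparison in limma, where 4.20% of all genes did. The members of smallest p were ITGB1 and ITGA2, which form the main collagen-binding integrin of epithelium, at -0.69 (adjusted p = 0.0505) and -0.64 (adjusted p = 0.0703). With SHP2 miR1 alone both fell, ITGB1 by 0.80 (adjusted p = 0.0347) and ITGA2 by 0.88 (adjusted p = 0.0279), 2 of 10 where 5.94% of all genes fell. Leaving out either control or either SHP2 miR1 array ended the ITGB1 call (0.0607 to 0.224), and leaving out control replicate 2 or either SHP2 miR1 array ended that of ITGA2 (0.0540 to 0.195). Both also missed the threshold with all probe sets tested (0.0614 and 0.0521). At an unadjusted p under 0.05 the receptor tyrosine kinase gene DDR1 was higher, at 0.44 (adjusted p = 0.113).

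Of 17 other basement membrane genes, 1 fell and 1 rose, where 2.67% of all genes fell and 1.53% rose. LAMB3, a chain of the epithelial laminin, read 11.40 and 11.30 in control, 9.77 and 9.72 under SHP2 miR1, and 10.89 and 10.70 under SHP2 miR2. It fell by 1.07 (SE 0.13, adjusted p = 0.00314) and held with any array left out. The difference was -1.60 with SHP2 miR1 and -0.55 with SHP2 miR2 (adjusted p = 0.208). The direct difference of 1.05 passed (adjusted p = 0.0421; 0.152% of all genes were called higher there). That call ended with any array left out, all probe sets tested (0.0834), the replicate number as a block (0.0675) or only the groups compared (0.0918). Leaving out a control array repeated the last of these fits. LAMB1, a chain of the laminins that accompany type IV collagen, read 9.57 and 9.67 in control, 10.19 and 10.25 under SHP2 miR1, and 10.32 and 10.32 under SHP2 miR2. It rose by 0.65 (SE 0.12, adjusted p = 0.0225), with p-values of 0.0555 to 0.147 when any array was left out. Of 9 collagen-degrading enzymes 0 passed on average in limma, where 4.20% of all genes did. The members of smallest p were CTSB at -0.59 (adjusted p = 0.101) and MMP14 at -0.31 (adjusted p = 0.201). With SHP2 miR1 alone 2 of the 9 fell, where 5.94% of all genes did. These were the lysosomal protease gene CTSB, by 0.79 (adjusted p = 0.0439), and the interstitial collagenase gene MMP1, near the floor, by 0.66 (adjusted p = 0.0323). Both calls ended with either control or either SHP2 miR1 array left out, or with all probe sets tested (0.0751 and 0.0566). LAMC1 also fell with SHP2 miR1, by 0.61 (adjusted p = 0.0365). That call ended whichever array was left out, with quantile normalization (-0.50, 0.0741), with all probe sets tested (0.0619) and with only the groups compared (0.0523). Leaving out an SHP2 miR2 array repeated the last of these fits.

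Markers of the labelled cell type and of others were read on the same arrays. Of all genes 4.20% were called on average and 8.60% with SHP2 miR1. All 9 measured mammary epithelial markers stood above the floor, and their mean level was 9.0 to 9.06 on the control arrays, 9.28 to 9.38 with SHP2 miR1 and 9.27 to 9.31 with SHP2 miR2. Of the 9 only KRT14, a basal keratin, passed on average, rising by 1.10 (adjusted p = 0.00440; 0.0855 without control replicate 2), while CDH3 had a difference of 0.12 and CDH1 and ITGB4 had 0.00 each. The epithelial markers KRT5, KRT19, KRT18, KRT8 and EPCAM had positive differences too, of 0.38, 0.35, 0.27, 0.18 and 0.14, without passing. For KRT14, KRT5, KRT18 and KRT8 all 4 SHP2 miR arrays lay above both controls, as for 12.6% of all genes. Of 11 fibroblast markers 7 were above the floor, with a mean of 5.21 to 5.32 in control, 5.32 to 5.40 with SHP2 miR1 and 5.27 to 5.33 with SHP2 miR2. Among them the collagen-binding proteoglycan gene DCN read 8.11 to 8.58, while LUM read 2.94 to 3.27. Of 10 endothelial, 9 leukocyte and 8 chondrocyte markers 4, 5 and 4 were above the floor. Their means lay at 4.71 to 4.85, 5.26 to 5.55 and 4.63 to 4.87 over all arrays. PTPRC, which defines leukocytes, and CDH5, which defines endothelium, were near the floor, but other members of these lists were not. The endothelial receptor gene TEK, read at 6.52 and 6.62 in control, fell by 1.38 (adjusted p = 0.000867), a call that held with any array left out. PECAM1 rose by 0.60 (adjusted p = 0.0422), and by 0.27 without passing when probe sets were averaged (0.358). With SHP2 miR1 alone KDR, near the floor, rose by 0.60 (adjusted p = 0.0418). Among leukocyte genes CSF1R fell by 0.75 (adjusted p = 0.0463), and with SHP2 miR1 alone CD14 rose by 1.08 (adjusted p = 0.0366) and CD68, read at 8.69 to 9.53, fell by 0.71 (adjusted p = 0.0272). The calls of PECAM1 and KDR ended with any array left out (0.0602 to 0.327). That of CSF1R ended without any array except SHP2 miR2 replicate 1 (0.0661 to 0.255), and those of CD14 and CD68 without either control or either SHP2 miR1 array (0.0544 to 0.169). Of the fibroblast and chondrocyte markers 0 passed on average in limma, where 4.20% of all genes did. The part of these markers in the collagen values was not tested.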

How the data were processed

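The deposited table holds 1 column for each of 6 HuGene-1_0-st-v1 arrays, of log2 values made by the authors. The submitters' processing notes name R 2.10 and oligo 1.8; how background, normalization and summary were done, and on which genome build, is not given in the sources used here. The platform annotation gave 1 symbol to 19310 of 28869 probe sets, several to 1752 and none to 7807. Of those with 1 symbol, 19279 matched RefSeq by gene ID. The probe set of highest mean was kept, which left 18377 genes. Groups and replicate numbers came from the sample titles.

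In limma 3.58.1 (R 4.3.3), group means were fitted to all genes over all arrays, with eBayes moderation on 3 residual and 6.10 prior degrees of freedom. Two-sided p-values were adjusted over all genes (Benjamini-Hochberg, threshold 0.05). The fit was tested on simulated data. The number of arrays limits the precision. Scan dates were not used here.

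The chains, the gene lists and the comparisons were chosen with earlier results of these data known. Named genes were chains called in any contrast and their partners on every array, all other chains by difference or range, PTPN11, and from each pathway list up to 6 called genes, or 2 by smallest p. Further genes of the lists (SERPINH1, P4HB, PPIB, PLOD2, LOX, SPARC, PCOLCE2, DDR1, those called with SHP2 miR1 alone, and markers) were named after their values were seen. Alternatives covered moderation, dim genes, normalization, centring, probe sets, array weights, groups fitted, a block for replicate number, a least log2 difference of 1, floors and left-out arrays. Leaving out an array of the group outside a comparison gave the same fit as only the groups compared, and is not a separate check.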

Additional observations from a re-analysis of the deposited data

Results flagged for a closer look

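For 3 chains both SHP2 miR1 arrays lay above both controls and both SHP2 miR2 arrays below them, where 3.20% of all genes had the groups on opposite sides in either order. COL23A1, a transmembrane collagen, read 6.46 and 6.41 in control, 6.77 and 6.71 under SHP2 miR1, and 6.19 and 6.33 under SHP2 miR2. Its difference between the SHP2 miRs, SHP2 miR2 minus SHP2 miR1, was -0.48 (95% interval -0.81 to -0.15, limma adjusted p = 0.166). COL26A1 read 6.23 and 5.96 in control, 6.26 and 6.24 under SHP2 miR1, and 5.81 and 5.76 under SHP2 miR2, a difference of -0.46 (-0.81 to -0.11, adjusted p = 0.193). COL9A2, a chain of type IX collagen, read 6.05 and 6.09 in control, 6.36 and 6.33 under SHP2 miR1, and 5.91 and 5.98 under SHP2 miR2, a difference of -0.40 (-0.72 to -0.07, adjusted p = 0.217). None of the 3 differences passed the threshold over all genes.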

How the results depend on the processing

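The count of 0 chains in the average comparison was 0 under every alternative except without SHP2 miR1 replicate 1, where COL6A3 passed (left-out arrays gave 0 to 1). With SHP2 miR2, and between the SHP2 miRs, it was 0 under every alternative run. The single chain called with SHP2 miR1 became 0 with a mean-variance trend, quantile normalization, all probe sets tested, only the groups compared or a minimum log2 difference of 1, and with any array left out (0 to 0). With dim genes left out or array medians centred the count was 1, but the chain was COL4A1 in place of COL12A1. The median of the expressed chains on average stayed between 0.04 and 0.14. Left-out arrays kept 28 or 29 chains expressed. The modification list had 8 calls with a mean-variance trend and 1 to 4 with an array left out. The cleavage list had 2 and 0 to 1, and the degrading list had 2 with the trend. The receptor list had 3 with the trend, 2 without dim genes, 1 with array medians centred, 1 with probe sets averaged and 0 to 1 with an array left out. The other basement membrane list had 1 to 1 with an array left out. The cause of these changes was not tested.

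Over all genes the average comparison called 771, against 1793 with a mean-variance trend, 1079 of 13047 without dim genes, 540 with all probe sets tested, and 185 and 108 without control replicate 1 or 2. Leaving out an SHP2 miR1 array gave 452 or 470 calls and leaving out an SHP2 miR2 array 392 or 512. SHP2 miR1 called 1581 genes, against 2786 with the trend and 269, 465 and 473 without control replicate 2 or SHP2 miR1 replicate 1 or 2. SHP2 miR2 called 68, against 367 with the trend, 154 without dim genes, 39 with all probe sets, 37 with a replicate block and 0 to 60 with an array left out. The direct comparison called 35, against 446, 95, 12 and 12 under those settings, 69 with medians centred, 55 with array weights, 12 with only the groups compared and 0 to 15 with an array left out.

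With the replicate number as a block the counts of chains were again 0, 1, 0 and 0, the receptor list had 1 call, and 817 genes passed on average. Deviations of same-numbered arrays correlated at 0.07, 0.14 and 0.01 across genes, so the numbers were not taken to pair the arrays.

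The sign of the average difference turned in 18 of 43 chains under at least 1 alternative, all with an array left out, and for COL6A6 also with quantile normalization (-0.034). With arrays left out the values ran from -0.076 to 0.29 for COL5A1, -0.093 to 0.29 for COL11A1, -0.00075 to 0.20 for COL11A2, -0.069 to 0.034 for COL24A1, -0.049 to 0.22 for COL27A1 and -0.10 to 0.31 for COL4A3. They ran from -0.22 to 0.0093 for COL4A4, -0.32 to 0.12 for COL4A5, -0.0045 to 0.28 for COL8A2, -0.14 to 0.019 for COL10A1, -0.054 to 0.34 for COL6A2 and -0.028 to 0.14 for COL6A6. They ran from -0.087 to 0.018 for COL14A1, -0.15 to 0.33 for COL22A1, -0.23 to 0.11 for COL13A1, -0.035 to 0.16 for COL25A1, -0.21 to 0.054 for COL26A1 and -4.03e-07 to 0.16 for COL28A1. The number of arrays limits all of these values.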
